A study of Mus musculus with 6 samples.

Results

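Translation factors are the proteins that start and extend protein synthesis on the ribosome, and the genes analysed here encode them together with the poly(A)-binding proteins and a few enzymes that act on the factors. Members were taken by name, as genes named Eif1 to Eif6, Eef1 or Eef2, and Pabpc1, Pabpc4, Pabpn1, Paip1, Paip2 and Dph3, without the eIF2 kinase genes and processed copies, at a mean of at least 1 TPM (transcripts per 1e6 transcripts). They came to 67 of the 56448 genes in the table, and all 67 were among the 13406 genes that reached that mean and were tested. By name 74 genes qualified. The 7 below the level were Eef1a2, Eef1akmt3, Eif2c5, Eif2s3y, Eif4e1b, Eif4e3 and Eif4ebp3.

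The study sequenced messenger RNA of 4T1, a mouse mammary tumour cell line, in 3 libraries labelled in9 and 3 labelled LV2. Both groups are 4T1 cells grown in the same serum-containing medium. The series' design describes stable lentiviral knockdown of the microRNA miR-9 beside a control group. The labels give in9 and LV2 as genotypes without saying which is the control, so each difference is in9 minus LV2. The design mentions microarray hybridization and the protocol mentions tissue, while the series is typed as sequencing of a cell line. Nothing states that replicates were separate cultures, infections or clones, so p-values measure the spread between these libraries only. Mature miR-9 is not measured by messenger RNA libraries, so the knockdown itself was not analysed here.

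The labelled cell type was checked against markers. The epithelial keratin genes Krt8 and Krt18 and the mesenchymal gene Vim, which 4T1 is known to express, were abundant in all libraries, at 865 TPM or more. Epcam, another epithelial gene, was at 38.1, 36.7 and 35.9 TPM in in9, against 47.65, 45.8 and 43.85 TPM in LV2. Krt19 and Cdh1 had overlapping groups, and Cldn7 was low, at 2.04 to 4.28 TPM. The mesenchymal gene Fn1 was at 299, 356 and 368 TPM in in9, against 243, 240.1 and 229 TPM in LV2. Epcam was thus lower and Fn1 higher in all in9 libraries, and the cause was not tested. The leukocyte genes Ptprc, Cd3e, Adgre1 and Csf1r were at 0.12 TPM or less in every library, and the fibroblast genes Col1a2, Dcn and Pdgfrb at 0.04 TPM or less. Pdgfra, another fibroblast marker, was at 7.71, 8.12 and 8.31 TPM in in9, against 6.52, 5.27 and 4.56 TPM in LV2. It was higher in all in9 libraries, and the part of such cells in the results was not tested. Of the endothelial genes, Cdh5 was at 1.46 to 1.81 TPM over the 6 libraries and Pecam1 at 0.31 TPM or less. The values used are TPM without counts, so depth is unknown. On the first principal component, which held 28.1% of the variance of all tested genes, in9 replicate 1 stood at -2.70, away from in9 replicates 2 and 3 at 26.1 and 27.8, and near LV2 replicate 1 at -6.98. LV2 replicates 2 and 3 were at -22.0 and -22.2. Results are therefore also given without in9 replicate 1.

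Initiation in eukaryotes begins when eIF2 brings the initiator tRNA to the small ribosomal subunit, with eIF1, eIF1A and the multisubunit eIF3. The eIF4F complex recruits the messenger RNA by its cap, and cytoplasmic poly(A)-binding protein bound to the tail contacts that complex. Elongation uses eEF1A, its exchange complex eEF1B and eEF2, and many of these messenger RNAs are themselves abundant in growing tumour cells.

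MicroRNAs act mainly by pairing of their seed, bases 2 to 8, with sites in 3' untranslated regions, so the members' miR-9 sites are shown first. Only sites of miR-9-5p were searched, and those of the other mature product, miR-9-3p, were not. The miR-9-5p sequence from RefSeq (build GRCm38.p6) is printed with its seed in capitals. It is the same for the genes Mir9-1 on chromosome 3, Mir9-2 on chromosome 13 and Mir9-3 on chromosome 7.
miR-9-5p: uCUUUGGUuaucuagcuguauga
Matches were searched on the transcript strand in the longest annotated 3' untranslated region of each gene (GENCODE M21, GRCm38), in 3 forms. The first was ACCAAAG, the complement of the seed. Another was CCAAAGA, shifted by 1 base toward the end of the site, and the last was the 8-base ACCAAAGA that joins both. Such a match was found in 9 of the 67 members (13.4%), against 2436 of 10949 tested genes with an annotated region (22.2%). The untranslated regions with a match were longer, with a median of 2094 bases against 687 bases in members without one. The members with a match were Eif1a, whose match is also the 8-base form, and those in the following lines, which give the strand and the match in capitals.
Eif5 (chr12:111546207-111546236, plus): tgctgtgtcacACCAAAGAtgtggtacttg
Eif4e (chr3:138555555-138555583, plus): ttgggagctgaACCAAAGcctcatcaaag
Eif2s1 (chr12:78886675-78886703, plus): atgaaggtgttACCAAAGctgcaatagta
Paip1 (chr13:119457579-119457607, plus): aaatctttagcACCAAAGtcttggagtat
Eef1akmt4 (chr16:20618221-20618249, plus): tatatagaacaACCAAAGgcagagggtgg
Eif2b3 (chr4:117072793-117072821, plus): ctacactgtgtCCAAAGAataagatcaaa
Eif4b (chr15:102096657-102096685, plus): aggggtcagctCCAAAGAtggcgagcctc
Eif4e2 (chr1:87239398-87239426, plus): cctcgaaatttCCAAAGAgcagacatttg
The log2 fold change had a median of -0.02 in the 9 members with a match and -0.04 in those without one. Over all tested genes the corresponding medians were 0.08 and 0.06. The site-bearing members lay on both sides of 0. Eif5 and Eif1a, the members with the 8-base match, were at 0.03 and -0.08, while Eif4b was at 0.08, Eif4e at -0.13 and Eef1akmt4 at -0.30. The pair of members that passed the test, Pabpc4 and Dph3, had no match in this window.

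Differences between in9 and LV2 were small. Of 67 members 0 were called higher and 2 were called lower in in9, Pabpc4 and Dph3, by limma on log2(TPM + 1) with Benjamini-Hochberg adjustment over all tested genes at 0.05. The background over all 13406 genes was 1.01% called, with 0.821% higher and 0.194% lower. After trimmed-mean scaling of the libraries the background was 0.53%, with 0.343% higher and 0.186% lower, and the same 2 members were called lower. The rule names Pabpc4 and Dph3 because an earlier result of these data had named them, so their 2 calls carry no weight as a share of the members. The log2 fold change was within 0.1 of 0 in 43 of the 67 members. Its range was -0.49 to 0.32. In bulk RNA, a lower level in each cell and a smaller share of cells with the RNA cannot be told apart.

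**Figure D1:**
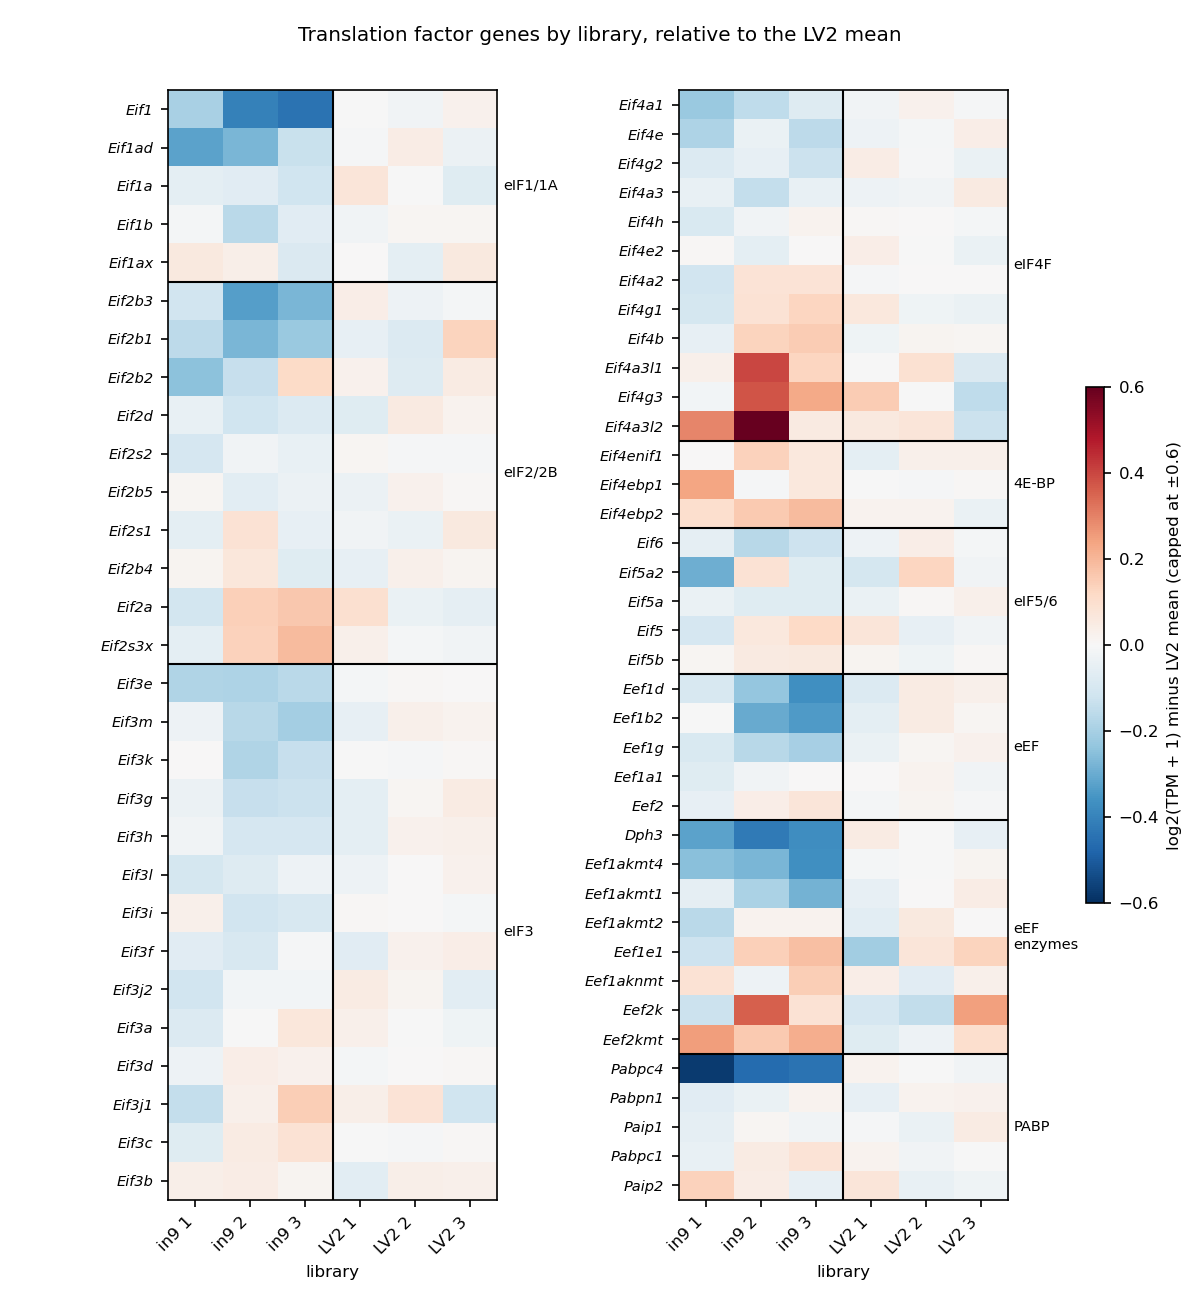
Each row is a member, grouped by role, and each column a library, in9 left of LV2; colour gives log2(TPM + 1) minus the mean of the 3 LV2 libraries, capped at 0.6 on either side. Pabpc4 and Dph3 are lower in all 3 in9 libraries, and Eif1, Eef1b2 and Eef1d are lower mainly in in9 replicates 2 and 3.

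More members were on the lower side than in the whole table. The log2 fold change was below 0 in 41 of 67 members (61.2%) and above 0 in 26 (38.8%), against 36.3% and 63.7% of all tested genes, and the median was -0.03 in the members and 0.06 over all tested genes. After trimmed-mean scaling the medians were -0.10 and -0.01, and 58 members (86.6%) were below 0, against 51.8% of all tested genes. At an unadjusted p under 0.05, 14 members were lower (20.9%) and 2 higher (2.99%) in in9, against backgrounds of 5.86% and 13.6%. Without Pabpc4 and Dph3, which earlier results had named, the counts among the other 65 were 12 lower (18.5%) and 2 higher (3.08%). With trimmed-mean scaling 21 members were lower at that p, or 19 of the 65, and 0 higher, against 10.9% and 8.56% of all genes. In the fit as reported the 14 were Pabpc4, 3 genes of elongation factor enzymes, 2 elongation factor genes, Eif3e, 2 genes of the eIF1 group, 2 of eIF2B, 2 of eIF4F and Eif6. The 2 higher ones were Eef2kmt and Eif4ebp2. The groups did not overlap in 21 members, with in9 lower in 19 (28.4%) and higher in 2 (2.99%), against 8.08% and 17.4% of all genes. Of the 65 without Pabpc4 and Dph3, in9 was lower without overlap in 17 (26.2%) and higher in 2 (3.08%). Summed over the members, TPM made up 2.54, 2.58 and 2.61% of the in9 libraries, against 2.66, 2.69 and 2.66% of the LV2 libraries, and the groups did not overlap.

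Level moved with this shift. The members were abundant, with a median of their mean levels of 175 TPM against 18.4 TPM over all tested genes, and in the whole table abundant genes also lay lower in in9. Of tested genes with means from 200 to below 1000 TPM, 60.1% had a log2 fold change below 0 and 21.7% were lower at an unadjusted p under 0.05. Of the 23 members in that class, 15 (65.2%) were below 0 and 6 (26.1%) lower at that p, which is near the share over all genes of the class. From 50 to below 200 TPM the class held 26 members, with 18 (69.2%) below 0 against 43.5% of all genes, and 4 (15.4%) lower at that p against 10.2%. Of the 10 members from 10 to below 50 TPM, 4 (40.0%) were below 0 against 32.6%, with 3 of the 10 lower at that p against 4.06% and 2 (20.0%) higher against 15.5%. Above them, 5 members reached 1000 TPM, with 3 (60.0%) below 0 against 69.7% and 1 (20.0%) lower at that p against 50.7%. Pabpc4, at a mean of 199.55 TPM, was among the 4 lower members from 50 to below 200 TPM. Dph3, at 45.3 TPM, was among the 3 from 10 to below 50 TPM. Both had been named by earlier results, so the shares of these 2 classes carry no weight as results about the members. In the top class the share was below that of all genes. The 3 members under 10 TPM had 0 at that p, against 2.16% lower and 11.2% higher of all genes. These level classes were drawn after the values were seen and serve as description only.

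Length moved with it as well. Across the 67 members the log2 fold change and the log2 of the length in the table had a Pearson r of 0.23 and a Spearman rho of 0.36, and across all 13406 genes 0.094 and 0.18. Genes share their libraries and are not independent replicates. The median log2 fold change was -0.08 in the 14 members under 1500 bases, against -0.01 over all genes of that length. From 1500 to below 2500 bases it was -0.07 in 22 members, against 0.05. In the 11 members of at least 4000 bases it was 0.01, against 0.10, so in each of these classes the members lay below the genes of like length. The relation with length moved with in9 replicate 1. Without that library the medians of the members, over the 4 length classes in rising order, were -0.11, -0.04, 0.02 and 0.06, against -0.02, 0.06, 0.10 and 0.17 over all genes. In in9 replicate 1 alone, relative to the LV2 mean, the members were at -0.03, -0.08, -0.07 and -0.08 and all genes at 0.02, 0.02, 0.01 and -0.03, so values did not increase with length there. The part of level and length in the lower values was not tested.

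**Figure D2:**
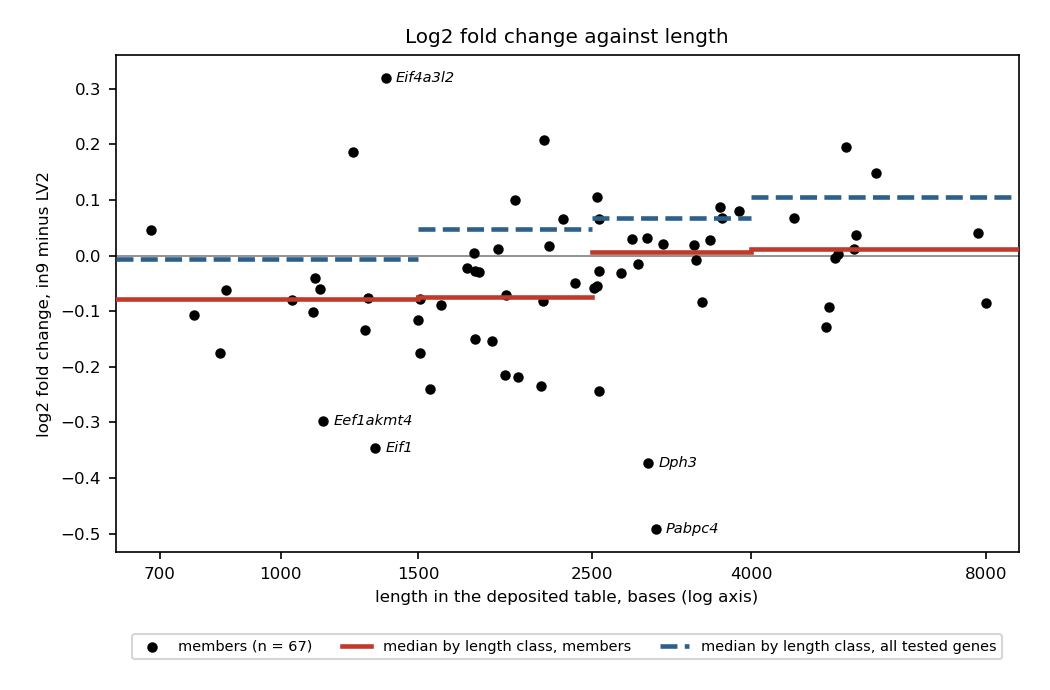
Points are the 67 members, by length in bases (log axis) and log2 fold change, in9 minus LV2; lines are medians by length class, solid for members and dashed for all tested genes. The member medians lie below the medians of all genes in all 4 classes, and Pabpc4 and Dph3 are the lowest points.

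Cytoplasmic poly(A)-binding proteins coat the tails of messenger RNAs, and Pabpc4 encodes a less abundant relative of the main protein from Pabpc1. Pabpc4 (ENSMUSG00000011257, chr4:123262351-123298925 on the plus strand) had 156, 169 and 172 TPM in the in9 libraries, against 237, 233 and 230.0 TPM in the LV2 libraries. The in9 libraries were all lower and the groups were far apart. Pabpc4 averaged 166 ± 8.12 TPM in in9 and 233 ± 3.58 TPM in LV2 (SD, n = 3 each), or 71.0% of the LV2 mean, with a log2 fold change of -0.49 ± 0.0477 (SE) at adjusted p = 0.0159. Without in9 replicate 1 the log2 fold change was -0.45, adjusted p = 0.0052. That fit called 971 genes higher and 509 lower over the whole table. With any other single library left out the log2 fold change of Pabpc4 was between -0.52 and -0.48. The call was then lost, at adjusted p between 0.0638 and 0.126, in fits that called between 8 and 14 genes over the whole table.

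The other 4 poly(A)-binding and partner genes did not pass the test. Pabpc1 had 1805, 1928 and 1972 TPM in the in9 libraries, against 1888, 1838 and 1861 TPM in the LV2 libraries, with the in9 libraries on both sides of LV2 (log2 fold change 0.03 ± 0.0443, adjusted p = 0.74, and -0.04 after trimmed-mean scaling). Paip2, whose product binds poly(A)-binding protein and inhibits translation, had 104, 97.4 and 91.2 TPM in the in9 libraries, against 99.1, 91.4 and 92.5 TPM in the LV2 libraries, with overlapping groups (log2 fold change 0.05 ± 0.0628, adjusted p = 0.716, and -0.03 after trimmed-mean scaling). Pabpn1, the nuclear poly(A)-binding protein gene, was at -0.03 and Paip1, whose product stimulates translation, at -0.02. Within each library Pabpc4 came to 8.67, 8.76 and 8.70% of Pabpc1 in in9, against 12.6, 12.7 and 12.4% in LV2. The ratio was lower in all in9 libraries and varied little within either group. Pabpc4 had been named by earlier results and Pabpc1 was near 0, so the ratio restates the Pabpc4 value and is no further result.

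**Figure D3:**
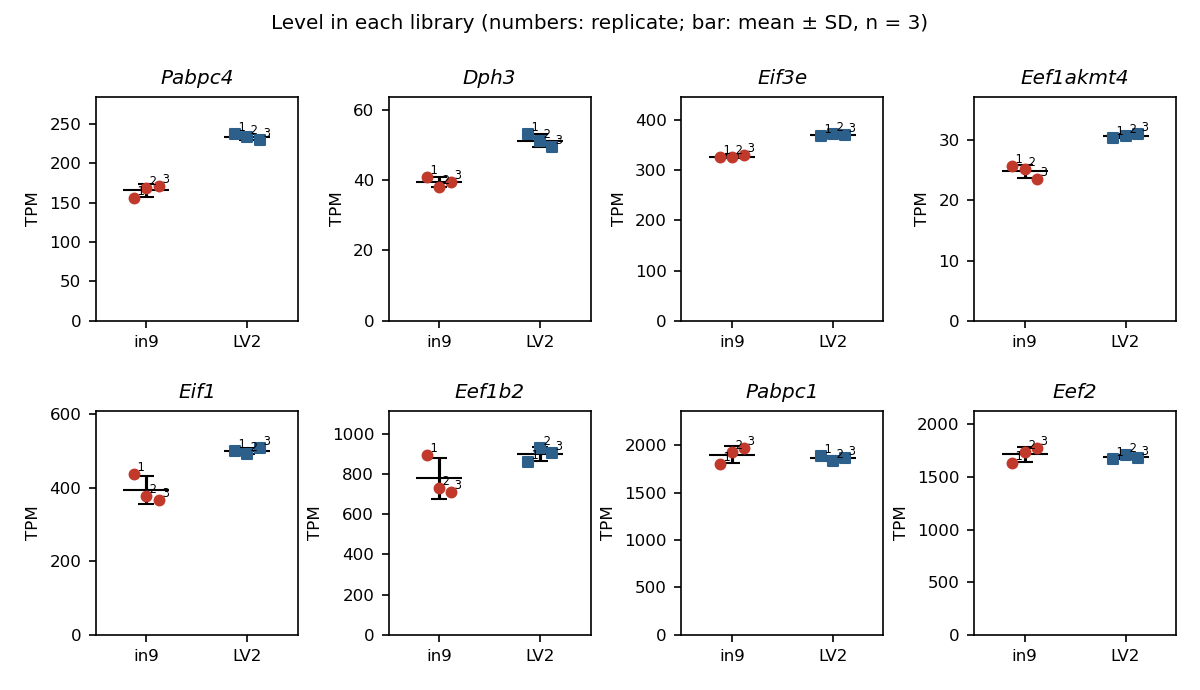
TPM of 8 members in each library, in9 left of LV2, with points numbered by replicate and bars for the mean and SD (n = 3 each). The groups are apart for Pabpc4, Dph3, Eif3e, Eef1akmt4 and Eif1, and overlap for Eef1b2, Pabpc1 and Eef2.

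Elongation factor 2 carries diphthamide, a modified histidine, and Dph3 encodes a small protein that supplies electrons for its synthesis. Dph3 (ENSMUSG00000021905, chr14:32080566-32085729 on the minus strand) had 40.9, 37.9 and 39.4 TPM in the in9 libraries, against 53.1, 51.1 and 49.5 TPM in the LV2 libraries. The highest in9 library was below the lowest LV2 library. It averaged 39.4 ± 1.47 TPM in in9 and 51.3 ± 1.81 TPM in LV2 (SD, n = 3 each), 76.8% of the LV2 mean, with a log2 fold change of -0.37 ± 0.0541 (SE) at adjusted p = 0.0453. Without in9 replicate 1 it was -0.40, adjusted p = 0.0175. With any other single library left out it stayed between -0.40 and -0.35 and the call was lost, at adjusted p between 0.125 and 0.197. Dph3 overlaps Oxnad1 on the opposite strand, a gene at 49.5 TPM with a log2 fold change of 0.21, and whether counting used strand is not given in the sources used here.

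The enzymes that modify elongation factors otherwise gave no call. Eef1akmt4, a lysine methyltransferase gene for eEF1A, had 25.6, 25.2 and 23.6 TPM in the in9 libraries, against 30.4, 30.6 and 31.0 TPM in the LV2 libraries. The groups did not overlap, with a log2 fold change of -0.30 ± 0.0564 (SE) at adjusted p = 0.068, and without in9 replicate 1 it was -0.32, adjusted p = 0.03. It overlaps Alg3 on the opposite strand, which was at 23.4 TPM. Eef2kmt, the lysine methyltransferase gene for eEF2, was the member of this group with the highest log2 fold change. It had 24.4, 22.8 and 23.8 TPM in the in9 libraries, against 19.3, 19.9 and 21.9 TPM in the LV2 libraries, with no overlap and in9 higher (log2 fold change 0.21 ± 0.0697, adjusted p = 0.185). Eef2kmt overlaps Alg1 on the opposite strand, which was at 21.3 TPM with a log2 fold change of -0.10. The other enzymes and partners ranged from -0.18 for Eef1akmt1 to 0.11 for Eef2k, the kinase gene that inhibits eEF2. The median of the 8 genes was 0.01. It turned to -0.06 under trimmed-mean scaling and to -0.05 under quantile normalization.

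Among the elongation factors themselves, the genes of eEF1A and eEF2 had log2 fold changes near 0 and those of the exchange complex were farther below it, with no call among the 5 and a median of -0.15. Eef1a1, whose product delivers aminoacyl-tRNA, was the most abundant member at 8591, 8887 and 9049.7 TPM in the in9 libraries, against 9040.1, 9146 and 8886 TPM in the LV2 libraries, with overlapping groups (log2 fold change -0.03). Eef2, the translocase gene, had 1629.7, 1734 and 1775 TPM in the in9 libraries, against 1674, 1708 and 1678 TPM in the LV2 libraries, again with overlap (log2 fold change 0.02, and -0.05 after trimmed-mean scaling). Processed copies of Eef1a1 exist in the genome and could share its reads.

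The 3 genes of the eEF1B exchange complex, which recharges eEF1A with GTP, had negative log2 fold changes that did not pass the test with all libraries. Eef1g had 553, 524 and 512 TPM in the in9 libraries, against 573, 593 and 600.0 TPM in the LV2 libraries, without overlap (log2 fold change -0.15 ± 0.0435, adjusted p = 0.14). Eef1d had 423, 385 and 350.1 TPM in the in9 libraries, against 428, 468 and 463 TPM in the LV2 libraries, also without overlap (log2 fold change -0.23 ± 0.0758, adjusted p = 0.173). Eef1b2 had 896, 728 and 709 TPM in the in9 libraries, against 860.4, 929 and 904 TPM in the LV2 libraries. In Eef1b2 the in9 replicate 1 value lay among the LV2 values and the other in9 libraries were lower (log2 fold change -0.21 ± 0.0921, adjusted p = 0.268). Without in9 replicate 1 all 3 genes were called lower. Eef1g was at -0.18, adjusted p = 0.0294, Eef1d at -0.30, adjusted p = 0.0367, and Eef1b2 at -0.32, adjusted p = 0.0161. In that fit 3.8% of all genes were called lower, against 0.194% with all libraries. The sum of the 3 genes came to 21.8, 18.4 and 17.4% of Eef1a1 in in9, against 20.6, 21.8 and 22.1% in LV2, and the ratio overlapped through in9 replicate 1.

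Of the 14 genes for eIF3, the largest initiation factor, 0 were called and 10 had negative log2 fold changes, with a median of -0.06 and a range of -0.18 to 0.03. The 10 were 71.4%, against 36.3% of all tested genes and 60.1% of those from 200 to below 1000 TPM. The median of the mean levels in this group was 287 TPM. After trimmed-mean scaling all 14 were below 0, against 51.8% of all tested genes. Eif3e had 325, 325 and 329.5 TPM in the in9 libraries, against 367, 371 and 369 TPM in the LV2 libraries. Both groups were tight and did not overlap, and the log2 fold change was -0.18 ± 0.0330 (SE) at adjusted p = 0.0669. Eif3m had 159, 145 and 141 TPM in the in9 libraries, against 157, 166 and 165 TPM in the LV2 libraries, with in9 replicate 1 inside the LV2 range (log2 fold change -0.13 ± 0.0567, adjusted p = 0.263). Eif3g, an RNA-binding subunit gene, had 310.1, 289 and 291 TPM in the in9 libraries, against 305, 321 and 329 TPM in the LV2 libraries, with the same overlap (log2 fold change -0.10 ± 0.0482, adjusted p = 0.305).

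Without in9 replicate 1, Eif3e, Eif3m and Eif3k were called lower. Eif3e was at -0.17, adjusted p = 0.0242, Eif3m at -0.18, adjusted p = 0.0455, and Eif3k at -0.16, adjusted p = 0.0322. In that fit 3.8% of all genes were called lower. Eif3k had 314, 276 and 285 TPM in the in9 libraries, against 313, 312 and 315 TPM in the LV2 libraries. The genes Eif3a, Eif3b, Eif3c and Eif3d lay between -0.01 and 0.03. Eif3e came to 9.60, 9.77 and 9.77% of the summed eIF3 TPM in in9, against 10.6, 10.5 and 10.4% in LV2. Its share was lower in all in9 libraries. Eif3e had the lowest log2 fold change of the eIF3 genes, so the share restates that value and is no further result. Eif3j1 and Eif3j2 are close copies and their reads may be split between them.

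**Figure D4:**
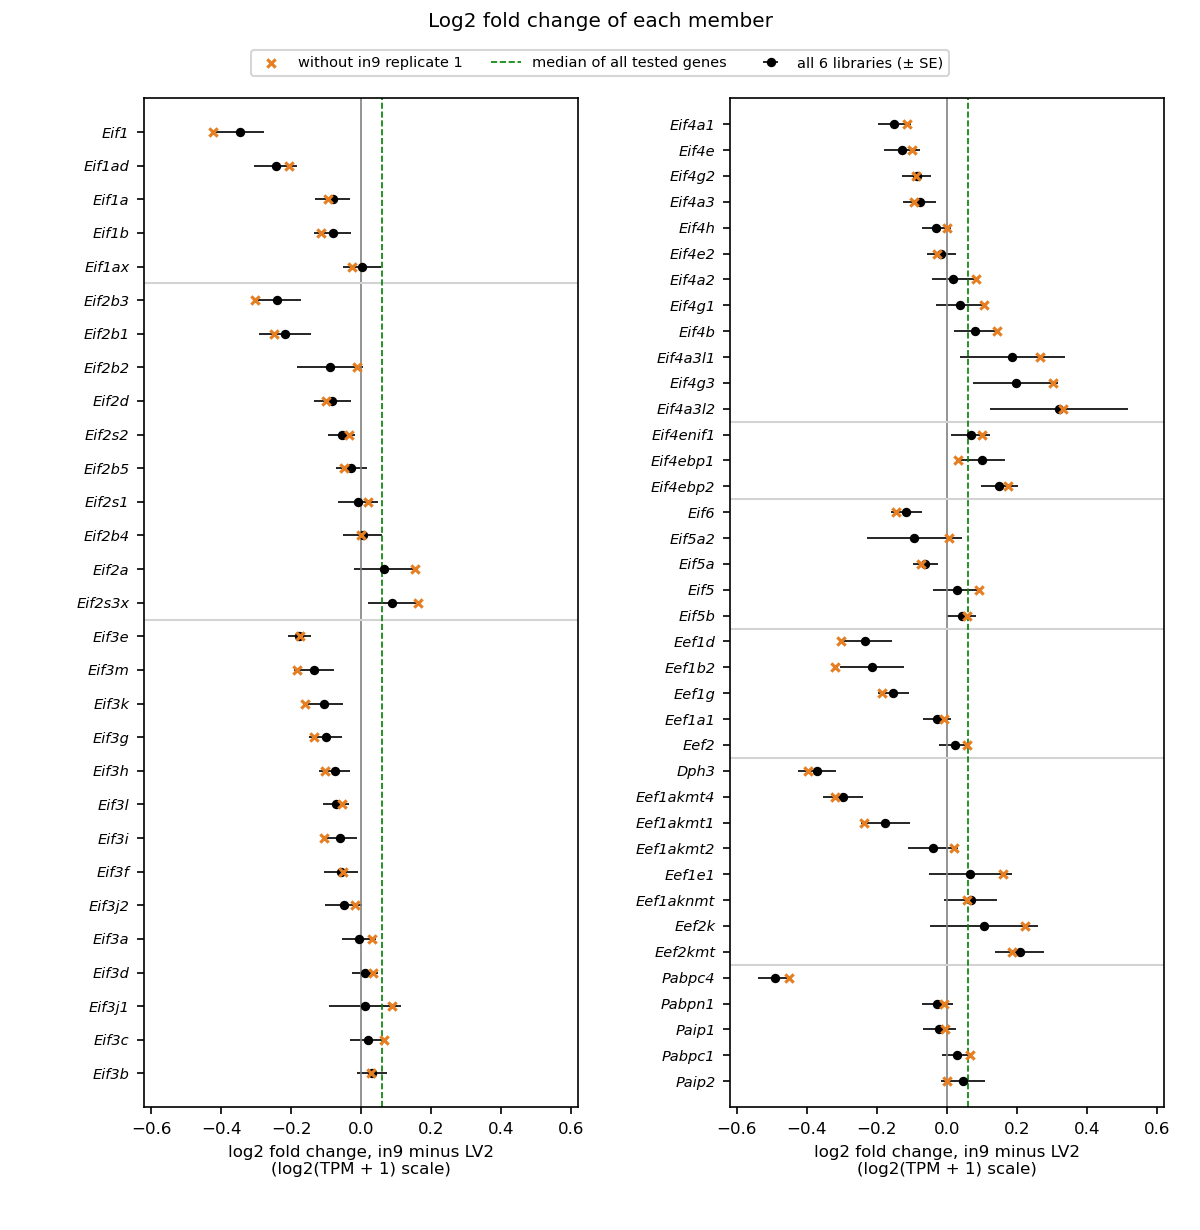
Log2 fold change, in9 minus LV2, of each member by role group, with SE, for all 6 libraries (dots) and without in9 replicate 1 (crosses); the dashed line is the median of all tested genes, 0.06. Pabpc4, Dph3 and Eif1 lie farthest below 0, and the 3 eIF4E inhibitor and carrier genes lie above it, although Eif4enif1 was at -0.01 after trimmed-mean scaling.

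The products of Eif1 and the eIF1A genes keep the scanning ribosome from starting at the wrong codon. None of the 5 genes was called and 4 (80.0%) had negative log2 fold changes, against 36.3% of all tested genes, with a median of -0.08. Eif1 had 437, 377 and 367 TPM in the in9 libraries, against 498, 492 and 508 TPM in the LV2 libraries. The in9 libraries were all lower, least so in replicate 1, and the log2 fold change was -0.35 ± 0.0693 (SE) at adjusted p = 0.075. Without in9 replicate 1 Eif1 was called lower, at -0.42, adjusted p = 0.0052.

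Eif1ad, named for its eIF1A domain, had 62.1, 64.3 and 70.9 TPM in the in9 libraries, against 77.5, 80.5 and 76.0 TPM in the LV2 libraries, without overlap (log2 fold change -0.24 ± 0.0617, adjusted p = 0.116). It overlaps Banf1 on the opposite strand, which was at 329 TPM with a log2 fold change of -0.22. Eif1a had 113, 113 and 108 TPM in the in9 libraries, against 124, 118 and 112 TPM in the LV2 libraries, with overlapping groups (log2 fold change -0.08, adjusted p = 0.421). Its close relative Eif1ax was at 0.00. Eif1 came to 124, 109 and 114% of the eIF1A genes Eif1a and Eif1ax together in in9, against 141, 146 and 145% in LV2, and the ratio did not overlap. Eif1 had the lowest log2 fold change of its group, so the ratio restates that value and is no further result.

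The eIF2 and eIF2B group, the GTPase that carries initiator tRNA and the exchange factor that recharges it, held 10 genes with a median of -0.04 and no call. Its lowest members were eIF2B subunit genes. Eif2b3 had 52.2, 44.8 and 46.6 TPM in the in9 libraries, against 58.3, 55.4 and 56.1 TPM in the LV2 libraries, without overlap (log2 fold change -0.24 ± 0.0675, adjusted p = 0.138), and was called lower without in9 replicate 1, at -0.30, adjusted p = 0.0253. Eif2b1 had 34.8, 32.0 and 33.1 TPM in the in9 libraries, against 37.6, 36.7 and 42.7 TPM in the LV2 libraries, also without overlap (log2 fold change -0.22 ± 0.0741, adjusted p = 0.189). The other 3 eIF2B genes lay between -0.09 and 0.00. Eif2d, a factor gene outside the eIF2 complex, had 56.5, 53.6 and 55.1 TPM in the in9 libraries, against 55.5, 60.5 and 59.2 TPM in the LV2 libraries, with overlap (log2 fold change -0.08, adjusted p = 0.428).

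The eIF2 subunits themselves did not share a direction. Eif2s2 was at -0.06 and Eif2s1 at -0.01. Eif2s3x, the X-linked gene of the GTP-binding subunit, had 163, 187 and 193 TPM in the in9 libraries, against 173, 168 and 167 TPM in the LV2 libraries. In9 replicate 1 was the lowest of the 6 libraries and in9 replicates 2 and 3 the highest, and without replicate 1 Eif2s3x was called higher (0.16, adjusted p = 0.0485).

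Genes named Eif4, other than the eIF4E inhibitors and carrier, were grouped by name as eIF4F, the cap-binding complex, and its helpers. Not all of their products act in that complex. These 12 genes had a median of 0.00, with 6 above and 6 below 0, or 8 below after trimmed-mean scaling, and no call. Those above 0 included Eif4a3l1 and Eif4a3l2, at means of 2.83 and 1.75 TPM, and the median was -0.02 at a minimum mean of 5 TPM. Eif4a1, the main helicase gene, had 946, 992 and 1048 TPM in the in9 libraries, against 1089, 1124 and 1099 TPM in the LV2 libraries, without overlap (log2 fold change -0.15 ± 0.0468, adjusted p = 0.161). A processed copy outside the members, Eif4a-ps4, was listed at 131, 81.5 and 48.9 TPM in in9, against 71.0, 48.6 and 82.1 TPM in LV2, so reads of the helicase may be split between both. Their sum was 1077, 1073 and 1097 TPM in in9, against 1160.1, 1173 and 1181 TPM in LV2, and did not overlap either. Eif4e, the cap-binding protein gene, had 202, 223 and 206 TPM in the in9 libraries, against 225, 228 and 236 TPM in the LV2 libraries, just without overlap (log2 fold change -0.13 ± 0.0509, adjusted p = 0.24).

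Eif4g2, a scaffold gene whose product lacks the eIF4E-binding part, had 470.3, 480.4 and 455 TPM in the in9 libraries, against 513, 496 and 484 TPM in the LV2 libraries, without overlap (log2 fold change -0.09 ± 0.0412, adjusted p = 0.308). The full scaffold genes Eif4g1 and Eif4g3 were at 0.04 and 0.20. Eif4b, which stimulates the helicase, had 197, 224 and 227 TPM in the in9 libraries, against 200.1, 206 and 205 TPM in the LV2 libraries. As in Eif2s3x, in9 replicate 1 was lowest and replicates 2 and 3 highest, and Eif4b was called higher only without replicate 1 (0.14, adjusted p = 0.0467). The value of 0.32 for Eif4a3l2 came from a gene at 1.52 to 2.71 TPM in in9, against 1.22 to 1.55 TPM in LV2, a near copy of Eif4a3.

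The eIF4E inhibitors and carrier were the role group with the highest median, 0.10 over 3 genes and none called, with all above 0 except Eif4enif1 after trimmed-mean scaling. Eif4ebp2 had 38.0, 39.6 and 40.5 TPM in the in9 libraries, against 36.0, 35.9 and 34.4 TPM in the LV2 libraries, without overlap and with in9 higher (log2 fold change 0.15 ± 0.0520, adjusted p = 0.195). Eif4ebp1 had 146, 123 and 129 TPM in the in9 libraries, against 124, 123 and 124 TPM in the LV2 libraries. Its in9 replicate 1 was the highest library and in9 replicate 2 lay inside the LV2 range (log2 fold change 0.10 ± 0.0667, adjusted p = 0.45). That value was 0.03 without in9 replicate 1 and 0.15 without in9 replicate 2. Eif4enif1, whose product carries eIF4E to the nucleus, had 52.7, 58.0 and 54.9 TPM in the in9 libraries, against 50.4, 53.7 and 53.7 TPM in the LV2 libraries, with overlap (log2 fold change 0.07, and -0.01 after trimmed-mean scaling). The 2 inhibitor genes together came to 91.2, 72.9 and 82.6% of Eif4e in in9, against 70.9, 69.8 and 67.3% in LV2. That ratio was higher in every in9 library and spread widely among them. It restates the values of Eif4ebp1, Eif4ebp2 and Eif4e and is no further result.

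**Figure D5:**
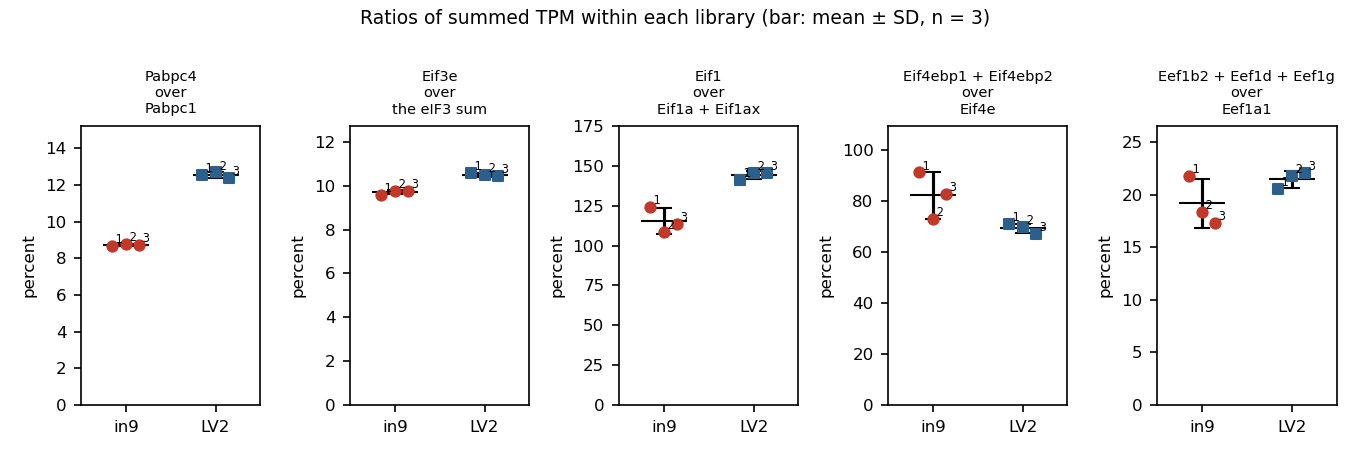
Ratios of TPM within each library, in percent, in9 left of LV2, with points numbered by replicate and bars for the mean and SD (n = 3 each). Pabpc4 over Pabpc1, Eif3e over eIF3 and Eif1 over the eIF1A genes are lower in all in9 libraries, the inhibitors over Eif4e are higher, and eEF1B over Eef1a1 overlaps. The ratios restate the values of the genes in them and are no further result.

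The genes of eIF5, eIF5A, eIF5B and eIF6 were 5, of which eIF5 and eIF5B act at the start codon and in subunit joining. They had log2 fold changes with a median of -0.06, and 0.01 after quantile normalization, and no call. Eif6, whose product keeps the ribosomal subunits apart, had 267, 247 and 254 TPM in the in9 libraries, against 271, 285 and 275 TPM in the LV2 libraries, without overlap (log2 fold change -0.12 ± 0.0450, adjusted p = 0.232). Eif5a, the hypusine-carrying factor gene, had 1650.1, 1613 and 1609.8 TPM in the in9 libraries, against 1650.2, 1706 and 1730.1 TPM in the LV2 libraries. The groups were only just apart (log2 fold change -0.06 ± 0.0363, adjusted p = 0.396), and the value was 0.07 after quantile normalization. Eif5b, the gene of the subunit-joining GTPase, had 93.2, 96.0 and 96.2 TPM in the in9 libraries, against 93.5, 90.8 and 92.9 TPM in the LV2 libraries, with overlap (log2 fold change 0.04, and -0.03 after trimmed-mean scaling).

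How many members were called moved with in9 replicate 1. Without it, 2 members were higher (2.99%), Eif2s3x and Eif4b, against a background of 7.25%, and 11 were lower (16.4%), against 3.8%. Of the 65 without Pabpc4 and Dph3, 2 were higher (3.08%) and 9 lower (13.8%). The 11 were Pabpc4, Dph3, Eif1, Eif2b3, Eif3e, Eif3k, Eif3m, Eef1b2, Eef1d, Eef1g and Eef1akmt4. Relative to the LV2 mean the median over the members was -0.06 in in9 replicate 1, -0.02 in replicate 2 and -0.03 in replicate 3. Over all tested genes it was 0.00, 0.08 and 0.09 in the same libraries, so in each in9 library the median of the members was below that of all genes. The part of that library in the calls was not tested further.

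Other genes of the translation pathway were read from lists of 97 genes, of which 92 were tested. With all 6 libraries none of the 92 was called, against the background of 1.01%. An unadjusted p under 0.05 was reached by 5 genes with in9 higher (5.43%) and 7 with in9 lower (7.61%), against 13.6% and 5.86% of all genes. With trimmed-mean scaling there were 1 higher and 19 lower (20.7%). Without in9 replicate 1, 6 were called higher (6.52%), Eif2ak2, Cnot6, Cnot6l, Cnot7, Larp4 and Eprs, and 1 lower (1.09%), Atf4. With all libraries the 5 higher ones were Eif2ak3, Dph7, Pdcd4, Cnot7 and Mtif2. The median log2 fold change of the 92 was 0.04, turning to -0.03 with trimmed-mean scaling. In the diphthamide pathway, Dph3 was the 1 called gene of 7. Dph2 had 15.1, 15.6 and 14.4 TPM in the in9 libraries, against 17.2, 17.6 and 17.8 TPM in the LV2 libraries (log2 fold change -0.21, adjusted p = 0.152). Dph5 was at -0.15, and Dph7 at 0.39, with 12.9 ± 1.82 TPM in in9 and 9.56 ± 0.711 TPM in LV2 (SD, n = 3 each). The product of Dph2 acts in the first step and that of Dph7 later, and the pathway had values on both sides of 0.

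The 4 eIF2 kinase genes, which halt initiation by phosphorylating eIF2, were all above 0, or all but 1 after trimmed-mean scaling, with a median of 0.23, no call and 1 gene at an unadjusted p under 0.05. Eif2ak3 had 6.81, 7.82 and 7.19 TPM in the in9 libraries, against 6.59, 5.29 and 5.49 TPM in the LV2 libraries (log2 fold change 0.29, adjusted p = 0.23). Eif2ak2 had 60.6, 87.4 and 84.6 TPM in the in9 libraries, against 65.6, 61.4 and 62.2 TPM in the LV2 libraries, with in9 replicate 1 below all LV2 libraries, and was called higher without it (0.44, adjusted p = 0.0123). Of 6 genes downstream, Ppp1r15a, an eIF2 phosphatase subunit gene, had 31.8, 34.4 and 31.2 TPM in the in9 libraries, against 42.2, 39.2 and 37.7 TPM in the LV2 libraries (log2 fold change -0.28, adjusted p = 0.103). Atf4, the transcription factor gene of that response, had 218, 203 and 201 TPM in the in9 libraries, against 242, 228 and 228 TPM in the LV2 libraries (log2 fold change -0.17, adjusted p = 0.148), and was called lower without in9 replicate 1 (-0.20, adjusted p = 0.0359). These and Asns, a target of that factor, were the 3 of 6 lower at an unadjusted p under 0.05, against 5.86% of all genes, and 0 of the 6 passed after adjustment. Ddit3, another transcription factor gene of the response, lay on the other side of 0, with overlap (log2 fold change 0.29, adjusted p = 0.268).

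Control of eIF4A and eIF4E by mTOR and its partners gave 0 calls among 13 genes, with a median of 0.06, or -0.01 after trimmed-mean scaling, and 1 gene at an unadjusted p under 0.05. Pdcd4, whose product inhibits the helicase eIF4A, had 5.19, 4.32 and 3.34 TPM in the in9 libraries, against 2.44, 1.75 and 2.01 TPM in the LV2 libraries. It was higher in all in9 libraries, at a low level (log2 fold change 0.78 ± 0.178, adjusted p = 0.0972). Among 20 cytosolic aminoacyl-tRNA synthetase genes the median was -0.01 and 1 gene, Tars, was lower at an unadjusted p under 0.05. It had 118, 125 and 122 TPM in the in9 libraries, against 134, 140.1 and 138 TPM in the LV2 libraries (log2 fold change -0.17, adjusted p = 0.111). The 10 members known for a terminal oligopyrimidine start, which ties their translation to mTOR, had a median of -0.07 with 3 above and 7 below 0, and 0 calls. At an unadjusted p under 0.05, Eif3e, Eef1g and Eef1d of these 10 were lower, against 5.86% of all genes. All 3 had means from 200 to below 1000 TPM, a class in which 21.7% of all tested genes were lower at that p. The part of level in these values was not tested.

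The other lists also had 0 calls with all 6 libraries. The median log2 fold change was -0.04 in 9 termination and recycling genes and 0.00 in 3 genes linked to hypusine synthesis. It was 0.05 in 9 mitochondrial translation factor genes and 0.05 in 18 deadenylation genes. After trimmed-mean scaling these medians were, in the same order, -0.11, -0.07, -0.02 and -0.02. Among the deadenylation genes, Cnot7, a nuclease gene of the complex that shortens tails, had 60.3, 72.8 and 75.4 TPM in the in9 libraries, against 58.6, 53.4 and 61.6 TPM in the LV2 libraries. The groups overlapped (log2 fold change 0.26, adjusted p = 0.229), and it was called higher without in9 replicate 1 (0.35, adjusted p = 0.0377). Cnot6 and Cnot6l, nuclease genes of the same complex, were called likewise, Cnot6 at 0.32, adjusted p = 0.0322 and Cnot6l at 0.69, adjusted p = 0.0467. These 3 were 16.7% of the 18 genes, against 7.25% of all genes called higher in that fit. Tob2, whose product binds that complex, had 13.4, 14.5 and 14.8 TPM in the in9 libraries, against 17.7, 16.6 and 17.8 TPM in the LV2 libraries, with in9 lower and no overlap (log2 fold change -0.27, adjusted p = 0.123). Mtif2, the mitochondrial initiation factor gene, had 17.2, 18.4 and 20.0 TPM in the in9 libraries, against 15.8, 17.0 and 14.2 TPM in the LV2 libraries, without overlap (log2 fold change 0.23, adjusted p = 0.239). Of 9 further poly(A)-binding and partner genes 5 were tested, all above 0, with a median of 0.20. Larp4 among them had 28.0, 41.9 and 42.0 TPM in the in9 libraries, against 33.8, 32.0 and 29.7 TPM in the LV2 libraries, with in9 replicate 1 lowest, and was called without it (0.39, adjusted p = 0.0291).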

How the data were processed

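The deposited table held TPM values with 2 decimals per gene for 6 libraries, made by the authors beside a mean per group and a length per gene. The genome build was mm10, per the submitters' processing notes. Which aligner, quantifier, annotation and strand setting were used is not given in the sources used here. No counts came with the values, so depth and counting error are unknown.

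The 13406 genes that averaged 1 TPM or more were fitted on the log2(TPM + 1) scale by limma 3.58.1 (R 4.3.3), letting the prior variance follow intensity and using no replicate block. The fit was two-sided, in9 minus LV2, with Benjamini-Hochberg adjustment over all tested genes and a threshold of 0.05. A fold change on this scale understates changes of low genes. The script was tested on simulated data. Alternatives were another pseudocount, other filters, trimmed-mean scaling, quantile normalization, no trend, library weights, the replicate block and leaving out each library. Gene positions and 3' untranslated regions came from GENCODE M21, which matched all 67 members, and the microRNA from RefSeq. Tables and figures were made with python 3.11.15, pandas 2.3.3, numpy 2.4.6 and matplotlib 3.10.9.

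Values per library are given for called members and for the 3 members of each role group with the smallest unadjusted p. They are also given for members and list genes behind a count of 5 or fewer. The members, role groups and lists were chosen with earlier results of these data known. Further genes named beside a ratio or a group range were chosen after their values were seen. A marker gene of the cell type check is not reported here.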

Additional observations from a re-analysis of the deposited data

How the results depend on the processing

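The counts of called members depended on the settings. Members called lower were 1 without a filter on mean TPM, 0 without the intensity trend, and 13 with library weights, which called 523 genes lower over the whole table. With 1 library left out they ranged between 0 and 11, members called higher between 0 and 2, and other listed genes called between 0 and 7, and the upper ends came without in9 replicate 1. Dph3 had an adjusted p of 0.0748 without the filter and 0.0809 without the trend, and Pabpc4 0.0632 without the trend. Deviations of equal replicate numbers correlated at -0.10, 0.02 and -0.05, and no in9 library correlated best with the LV2 library of its own number. Deviations taken within groups of 3 libraries cannot decide whether equal numbers shared a culture or a preparation. With the replicate block 0 members were called lower, with 1 gene higher and 1 lower over all genes. In that fit the adjusted p was 0.208 for Pabpc4 and 0.234 for Dph3. Library weights called 6 other listed genes. Trimmed-mean scaling gave medians of -0.10 for members, -0.15 for eIF1 and eIF1A, -0.11 for eIF2 and eIF2B, -0.13 for eIF3, 0.03 for the eIF4E inhibitors, -0.07 for eIF4F, -0.14 for eIF5 and eIF6, -0.23 for elongation factors, -0.06 for their enzymes, -0.10 for poly(A)-binding proteins and -0.03 for other lists. Quantile normalization gave 0.01 for eIF5 and eIF6 and -0.01 for other lists, and no filter gave -0.09 for elongation factors. With 1 library left out, medians ranged from -0.05 to -0.01 for members, -0.06 to -0.02 for eIF2 and eIF2B, 0.10 to 0.14 for the eIF4E inhibitors and -0.08 to 0.01 for eIF5 and eIF6, and the log2 fold change of Paip2 from -0.00065 to 0.09. Trimmed-mean scaling moved the median of all genes by -0.07 and changed the sign of 17 of the 67 members, with 58 below 0 against 41 in the fit as reported. Of the members described above these were Eif4enif1 (-0.01), Eif5b (-0.03), Pabpc1 (-0.04), Paip2 (-0.03), Eef2 (-0.05), Eif5 (-0.05), Eif3b (-0.04), Eif3c (-0.05), Eif3d (-0.06), Eif3j1 (-0.06), Eif4g1 (-0.04) and Eif1ax (-0.07). Sign also changed for Eif5a (0.07) under quantile normalization, and for Paip2 without in9 replicate 1. The cause was not tested. Depth is unknown, and 3 libraries per group limit the precision.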
